A study of Mus musculus with 32 samples.

Results

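H/ACA small nucleolar RNAs (snoRNAs) and small Cajal body RNAs (scaRNAs) were followed in lung RNA of Bmal1 knockout and wild-type mice after 3 library preparations. A row of the count table was taken as a member when the gene symbol of its Ensembl identifier began with Snora or Scarna and a digit. Of 41687 rows, 50 met this rule, 41 of them Snora and 9 Scarna. The table of gene names held 51 such identifiers, and a second Snora16a entry had no row in the counts.

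H/ACA snoRNAs are short nuclear RNAs that fold into hairpins followed by a hinge (the H box) and a terminal ACA. Bound to dyskerin (Dkc1), Nop10, Nhp2 and Gar1, most of them pair with ribosomal RNA and direct the conversion of chosen uridines to pseudouridine, and a few act in ribosomal RNA cleavage. The scaRNAs reside in Cajal bodies, where they guide modification of spliceosomal small nuclear RNAs (snRNAs), and they can carry H/ACA domains, C/D domains (the motif of methylation guides) or both. Most mammalian members are cut out of introns of host genes and are not polyadenylated.

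Lungs came from adult C57b/6 mice and Bmal1 knockouts (KO) bred in-house, aged 8 to 18 weeks and labelled female, with 6 wild-type (WT) and 6 KO animals. The WT and KO animals numbered 1 to 6 are different mice, and the labels do not say how the knockout allele was made. Each mouse gave a RiboZero library (ribosomal RNA removed by pull-down) and a PolyA library (polyadenylated RNA selected), both from 200 ng of RNA. Mice 3 to 6 of each genotype also gave a NoSelect library, with neither step, from 15 ng in 6 preparations that were combined, so that 32 libraries in 6 groups were available. The labels give no time of day and no treatment.

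Total counts ran from 11638590 to 25801192 in RiboZero, 29924271 to 41548759 in PolyA and 74979759 to 115059730 in NoSelect libraries. The Lars2 and Gm42418 rows, which collect ribosomal RNA reads, took 67.8% to 71.5% of the NoSelect counts and left 22009219 to 37100630 outside them. The targeted gene Arntl (Bmal1) had 27.5 to 29.4 normalised CPM in WT and 16.6 to 18.7 in KO NoSelect libraries. It had 27.0 to 33.9 in WT and 15.2 to 18.7 in KO RiboZero libraries, and in PolyA the ranges (19.6 to 23.6 in WT, 17.0 to 20.9 in KO) overlapped. The deleted stretch is not given in the sources used here, so these totals check the labels only in part. The NoSelect library of KO mouse 6 is labelled as liver. Its 5 lung epithelial markers summed to 22600 normalised CPM, against 15600 to 19500 in the WT NoSelect libraries, and its 5 liver markers to 5.11, against 1.86 to 4.74. All 3 libraries of KO mouse 6 also held Ddx3y (41.4 to 89.1 normalised CPM), a Y-linked gene at 0 in every other library. Xist, an X-linked gene of female cells, was at 0.0482 to 0.391 in them, against 250 to 1580 in the other libraries. By these genes the label female does not hold for this mouse. Leaving out KO mouse 6 changed none of the counts of called members given for the 9 comparisons below.

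The sequences of the most abundant members are shown because the results turn on them. By NoSelect level per length they belong to the 4 leading Snora genes, to Snora70, which follows Snora74a (named only), and to the 3 leading Scarna genes, read 5′ to 3′ from the GENCODE M21 transcripts (build GRCm38). Scarna10 is printed from base 1 to 300 of 325 and Scarna2 from base 115 to 414 of 414, the others whole. Capitals mark an ACA that ends 3 bases before the 3′ end, and TGATGA, the letters of a C box in methylation guides.
Snora73b: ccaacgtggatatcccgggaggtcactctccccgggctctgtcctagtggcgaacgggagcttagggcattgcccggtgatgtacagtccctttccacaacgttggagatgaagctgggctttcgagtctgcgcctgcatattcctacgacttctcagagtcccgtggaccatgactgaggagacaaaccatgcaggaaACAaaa
Snora73a: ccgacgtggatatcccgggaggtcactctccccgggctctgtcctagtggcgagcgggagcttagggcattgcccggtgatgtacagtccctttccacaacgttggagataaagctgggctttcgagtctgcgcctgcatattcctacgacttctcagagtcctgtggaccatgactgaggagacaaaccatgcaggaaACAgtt
Snora81: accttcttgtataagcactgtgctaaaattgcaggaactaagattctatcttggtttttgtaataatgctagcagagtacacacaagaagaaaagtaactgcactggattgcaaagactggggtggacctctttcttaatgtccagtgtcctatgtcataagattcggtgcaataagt
Snora44: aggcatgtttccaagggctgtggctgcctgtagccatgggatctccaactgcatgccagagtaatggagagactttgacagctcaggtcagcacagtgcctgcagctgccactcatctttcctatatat
Snora70: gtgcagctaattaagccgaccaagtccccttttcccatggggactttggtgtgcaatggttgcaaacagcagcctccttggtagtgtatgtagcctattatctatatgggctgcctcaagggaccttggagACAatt
Scarna10: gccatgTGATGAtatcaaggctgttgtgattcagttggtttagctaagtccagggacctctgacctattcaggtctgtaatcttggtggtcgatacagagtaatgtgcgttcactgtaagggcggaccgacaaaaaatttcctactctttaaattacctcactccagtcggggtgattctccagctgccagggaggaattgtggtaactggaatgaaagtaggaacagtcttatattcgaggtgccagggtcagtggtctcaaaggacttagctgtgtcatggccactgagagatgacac
Scarna2: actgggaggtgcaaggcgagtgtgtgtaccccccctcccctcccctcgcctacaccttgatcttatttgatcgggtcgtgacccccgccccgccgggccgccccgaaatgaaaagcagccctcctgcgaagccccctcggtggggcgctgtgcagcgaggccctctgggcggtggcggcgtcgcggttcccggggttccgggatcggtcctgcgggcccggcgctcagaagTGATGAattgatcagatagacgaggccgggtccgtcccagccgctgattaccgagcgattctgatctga
Scarna13: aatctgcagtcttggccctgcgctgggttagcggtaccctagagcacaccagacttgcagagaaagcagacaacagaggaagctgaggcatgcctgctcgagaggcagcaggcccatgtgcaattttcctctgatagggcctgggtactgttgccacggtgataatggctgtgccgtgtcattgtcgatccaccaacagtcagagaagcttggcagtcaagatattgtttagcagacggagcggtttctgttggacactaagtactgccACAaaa
Snora73b (chr4:132352322-132352526, minus strand) and Snora73a (chr4:132352775-132352979, minus strand) lie in introns of the Rcc1 and Snhg3 transcripts that span them. They are copies of U17, which acts in the cleavage of precursor ribosomal RNA, and are identical at 198 of 205 positions (96.6%). Snora81 (chr16:23110756-23110933, plus strand) lies in Eif4a2, Snora44 (chr4:132309941-132310069, plus strand) in Snhg12, and Snora70 (chrX:74272484-74272620, plus strand) in the ribosomal protein gene Rpl10. Each of these 3 overlaps an exon of at least 1 host transcript. Scarna10 (chr6:125186359-125186683, minus strand) lies in an intron of Ncapd2, and Scarna13 (chr12:105031075-105031349, minus strand) in an intron of Snhg10. Scarna2 (chr3:108554338-108554751, minus strand) lies outside other genes on its strand.

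An ACA ending 3 bases before the annotated 3′ end was present in 34 of 41 Snora genes (82.9%) and in 2 of 9 Scarna genes (22.2%). The same test was met by 0 of 99 Snord (C/D snoRNA) genes and by 2.96% of 20149 other transcripts of 70 to 414 bases. TGATGA, searched anywhere on the transcript strand, was in 0 of 41 Snora, 6 of 9 Scarna (66.7%) and 75.8% of the Snord genes, and in 14.2% of the other transcripts. By these letters the Snora rows carry the end that gives the class its name, while Scarna rows are mixed. An ACA anywhere in the last 12 bases was found in 39 Snora and 5 Scarna genes (95.1% and 55.6%), and in 18.0% of the other transcripts. TGATGA without an ACA in the last 12 bases was found in 4 of 9 Scarna genes, and Scarna8 holds both TGATGA and the ACA end. Scarna13 holds the ACA end and no TGATGA, and Scarna10 and Scarna2 hold TGATGA and no such end. Snora81 and Snora44 have no ACA at that place in their annotated sequence.

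Of the 50 genes, 44 lie within a host gene on the same strand, 35 of them within a protein-coding host. In 19 the RNA overlaps an exon of at least 1 host transcript, 25 are intronic in every host transcript that spans them, and 6 lie outside other genes. Reads of a member can be shared with other annotated RNAs: 21 members have every 31-base word in another gene, and 12 have none. For these 21, among them Snora81, Snora44, Snora70 and Snora74a, the split of counts between the member, its host exon and near-identical copies is uncertain. It is also uncertain in part for members that share some of their words, such as Scarna10 (85.8%) and Snora73a (85.1%).

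Members were detected far more often without selection. With detection set at 10 counts in a library, NoSelect libraries held 35 to 42 members (median 39.5), RiboZero libraries 18 to 28 (median 22.5) and PolyA libraries 2 to 4 (median 2.5). The ranges did not overlap. The 9 Scarna genes were detected in similar number in NoSelect (6 to 7 per library) and RiboZero (5 in each), and none reached 10 counts in PolyA. With every library thinned to 11628023 counts outside the 2 ribosomal rows, the medians were 35.5, 19.5 and 1.0. A single row, Scarna9, was at 0 in all 32 libraries, and 7 rows (Scarna9, Scarna17, Snora19, Snora20, Snora2b, Snora35 and Snora75) never reached 10 counts. A row at 0 in a library could still hold up to 3 counts by counting error. Such limits cover counting error only, since PCR products are not independent molecules.

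Together the members took 0.0265% ± 0.00409 (SD, n = 8) of NoSelect counts, or 0.0858% ± 0.0121 of the counts outside the ribosomal rows. They took 0.0595% ± 0.00528 (SD, n = 12) of RiboZero counts and 0.000934% ± 0.0001 (SD, n = 12) of PolyA counts. Normalised CPM (CPM on TMM-scaled library sizes over all 32 libraries) lessens the weight of the ribosomal rows. On that scale the summed level was 751 ± 115 (SD, n = 8) in NoSelect, 473 ± 38 in RiboZero and 5.86 ± 0.578 in PolyA. The longer of 2 Snora43 rows, described below, made up 4.63 of the PolyA sum. Without it the PolyA libraries had 1.23 ± 0.165 normalised CPM and a share of 0.000196% ± 2.61e-05 (SD, n = 12), and the other preparations 746 ± 115 and 467 ± 38.3. Sums of RNA in tissue do not tell fewer cells of a type from less RNA per cell.

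Levels of different genes were compared per kilobase of annotated length. In NoSelect, Snora73b led with 917 ± 84.8 normalised CPM per kilobase (SD, n = 8). Snora73a followed with 499 ± 57.8 and Snora81 with 455 ± 195, which did not differ beyond their spread. Snora44 (252 ± 62.9), Scarna10 (231 ± 27.7), Snora74a (189 ± 40.4) and Scarna2 (177 ± 9.8) came next on the same scale. Snora44 and Scarna10 did not differ beyond their spread, nor did Snora74a and Scarna2, while Scarna10 and Snora74a lay 1 SD or more apart. These comparisons set means against the SD over libraries and do not pair the genes within a library. The mice numbered 5, described below, were low in Snora44 and Snora74a and add to their SD. Snora74a is the H/ACA RNA U19, and Scarna10 and Scarna2 guide modification of spliceosomal snRNAs. Snora70 (117 ± 38.6), Snora23 (110 ± 42.3) and Scarna13 (97.8 ± 5.83) completed the 10 leading rows.

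The order was different in RiboZero. Snora73a led with 462 ± 44.6 normalised CPM per kilobase (SD, n = 12), ahead of Snora73b (371 ± 35.7), Scarna10 (254 ± 26.1), Scarna2 (227 ± 24) and Snora74a (195 ± 37.9). Scarna13 had 142 ± 11.1. Snora81 had 24.8 ± 8.87, Snora23 21.3 ± 5.88, Snora44 17.1 ± 3.17 and Snora70 6.42 ± 2.75 per kilobase. Snora81, Snora44, Snora23 and Snora70, all among the 10 leading rows of NoSelect, lay below Scarna10, Scarna2 and Scarna13 in RiboZero.

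**Figure D1:**
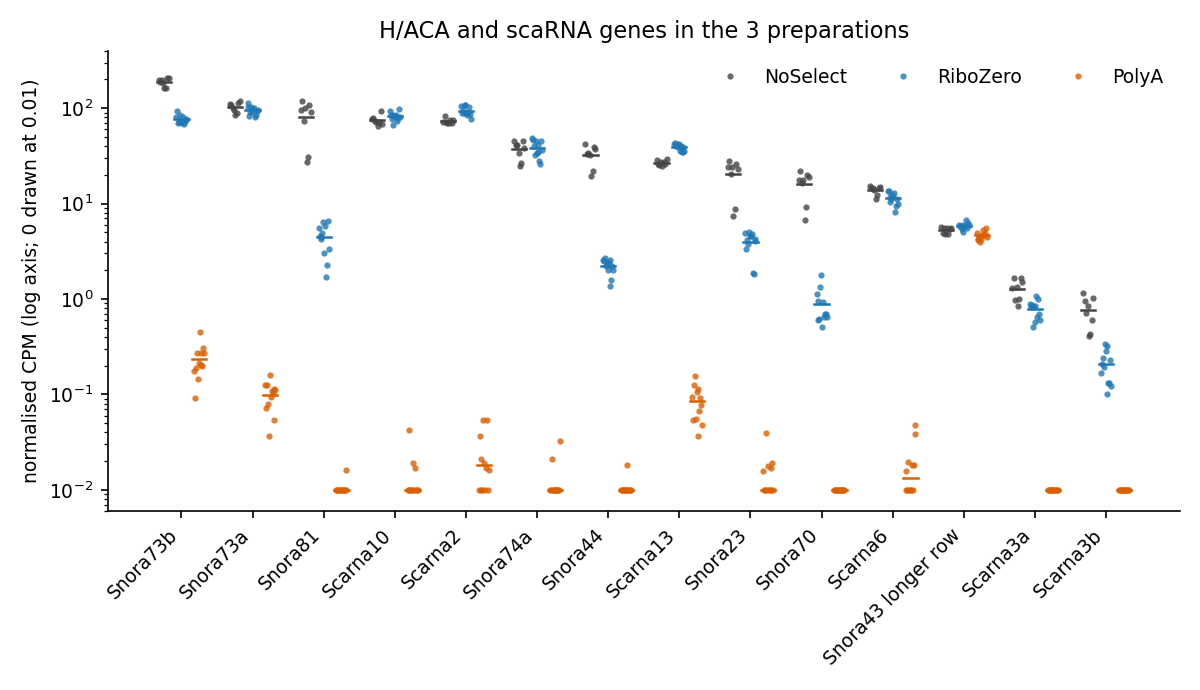
Normalised CPM (log axis, values of 0 drawn at 0.01) of the most abundant members, the tested Scarna genes and the longer of 2 overlapping Snora43 rows (the longer by annotation). Each point is 1 of 8 NoSelect, 12 RiboZero or 12 PolyA libraries and bars are means; Snora73a, Scarna10, Scarna2 and Snora74a lie at similar heights in NoSelect and RiboZero, Snora81, Snora44, Snora23 and Snora70 lie lower in RiboZero, and only the Snora43 row keeps its level in PolyA.

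Members of the same host differed widely in level. Snhg12 holds 3 members, and in NoSelect Snora44 had 252 ± 62.9 normalised CPM per kilobase, Snora16a 6.82 ± 2.08 and Snora61 2.44 ± 0.715. All 3 overlap Snhg12 exons, so their counts may be split with the host. In Kansl2, Snora34 had 15.4 ± 5.55 and Snora2b 0.729 ± 0.533 per kilobase. Snora73b exceeded Snora73a within Rcc1 and Snhg3 in NoSelect, where the lowest Snora73b library (163 normalised CPM) lay above the highest Snora73a library (118), both being 205 bases long. In RiboZero the means were the other way round, 76.1 ± 7.32 for Snora73b and 94.7 ± 9.13 for Snora73a. Snora73b was the higher in 8 of 8 NoSelect and 12 of 12 PolyA libraries, and Snora73a in 12 of 12 RiboZero libraries. Of the 31-base words of Snora73a, 85.1% also occur in other genes, Snora73b and Snhg3 among them, so the share given to each copy depends on the few differing bases.

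The comparison of PolyA with NoSelect asks which members survive selection of polyadenylated RNA. Snora81 had 27.1, 94.3 and 119 normalised CPM (lowest, median, highest) in NoSelect, and was at 0 in PolyA but for 1 library with 1 count. Against a floor of 3 counts per library this is at least 1490-fold lower. Scarna10 ran from 65.1 over 73.0 to 94.3 in NoSelect with at most 2 counts in a PolyA library, at least 1380-fold lower. Scarna2 ran from 69.7 over 71.6 to 81.9 and reached at most 3 counts in PolyA, at least 1340-fold lower.

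Snora73b, the leading member, was still counted in every PolyA library. It had 163, 191 and 208 normalised CPM in NoSelect and 0.0906, 0.208 and 0.453 in PolyA, a log2 fold change of -9.61 (SE 0.127, adjusted p = 1.07e-22, edgeR quasi-likelihood test with Benjamini-Hochberg adjustment over all rows). Scarna13 changed by -8.23 in log2 (SE 0.122, adjusted p = 6.27e-22 in edgeR), from 24.6 to 29.3 in NoSelect to 0.0365 to 0.157 in PolyA. Unlike Snora73b, Scarna13 did not pass the filter within PolyA and was tested because it is high in NoSelect. Its p is therefore a description. The ranges of both genes were far apart.

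Of the 36 members tested, 35 were called lower in PolyA than in NoSelect and 0 higher, where a called row had an adjusted p under 0.05 and differed by 1 or more on the log2 scale. Over all 18372 rows tested, 25.1% were called, 15.1% lower and 10.0% higher. The median log2 fold change of the members was -8.8, or -6.43 with the 25 members at the PolyA floor set to their bound, against 0.1 over all rows. All 6 tested Scarna genes were among the called, down to Scarna3b with 0.408, 0.779 and 1.16 normalised CPM in NoSelect. The 14 members left out had too few counts. A member with counts in NoSelect alone could pass the filter only by differing, so these counts describe the tested members and not the class.

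In PolyA, 39 of the 50 members never exceeded 3 counts in a library. The other 11 were Snora73b (5 to 24 counts), Snora34 (4 to 15), Snora28 (5 to 12), Snora73a (2 to 9), Snora31 (2 to 9), Scarna13 (2 to 8), Snora64 (0 to 8), Snora57 (1 to 7), Snora68 (0 to 4), Snora24 (2 to 4) and 1 of the Snora43 rows. Snora34 had 0.816, 2.42 and 2.78 normalised CPM in NoSelect, 0.0873, 0.329 and 0.56 in RiboZero and 0.0755, 0.172 and 0.287 in PolyA. The RiboZero and PolyA ranges overlapped. Its fold change between PolyA and RiboZero was -0.84 in log2 (SE 0.216, adjusted p = 0.00102 in edgeR), short of the fold needed for a call.

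The exception in PolyA was a Snora43 row. Rows ENSMUSG00000097052 (chr2:26637847-26637985, minus strand, 139 bases) and ENSMUSG00000064858 (chr2:26637848-26637974, 127 bases) overlap almost completely in GENCODE M21 and both carry the symbol Snora43. The first had 4.82, 5.42 and 5.68 normalised CPM in NoSelect, 4.98, 5.83 and 6.66 in RiboZero and 3.91, 4.56 and 5.60 in PolyA. All 3 ranges overlap, and it was detected in all 12 PolyA libraries with 200 to 310 counts. The second reached at most 20 counts in NoSelect and was at 0 in every PolyA library. For the first row, the log2 fold change was -0.15 (SE 0.0671, edgeR adjusted p = 0.0531) between PolyA and NoSelect and -0.32 (SE 0.0572, edgeR adjusted p = 1.47e-05) between PolyA and RiboZero. The annotation used for the counts is not given in the sources used here, and whether the row then covered a longer transcript was not tested.

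Against RiboZero, 22 of 24 tested members were called lower in PolyA and 0 higher, beside 23.6% of all 18164 rows called, 16.6% lower and 7.0% higher. The median log2 fold change was -8.05, or -5.72 with the 16 members at the PolyA floor set to their bound. Within PolyA 2 members passed the filter, Snora73b and the longer Snora43 row, so the other 22 entered through RiboZero. Their count and their p values are a description. The 2 without a call were the longer Snora43 row and Snora34. Snora73a changed by -9.85 in log2 (SE 0.0989, adjusted p = 6.42e-29 in edgeR), from 81.6, 94.6 and 113 normalised CPM to 0.0364, 0.105 and 0.161. Snora28, which overlaps exons of Eif5, showed the smallest called decrease, with 0.175, 0.458 and 0.634 in RiboZero and 0.0803, 0.162 and 0.219 in PolyA (log2 fold change -1.43, SE 0.215, edgeR adjusted p = 1.39e-06). Both comparisons share the PolyA libraries and are not independent of each other.

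Between RiboZero and NoSelect the members divided. Of 33 tested, 22 were called lower in RiboZero and 0 higher, while 4.3% of all 17502 rows were called, 2.56% lower and 1.74% higher. All 22 were Snora genes (of 28 tested), and 0 of 5 tested Scarna genes were called. The other 4 Scarna genes were not tested, so this does not hold for all Scarna genes. Scarna3b had 0.408 to 1.16 normalised CPM in NoSelect and 0.102 to 0.336 in RiboZero. Scarna8 had 0.08 to 0.599 and 0 to 0.108, and Scarna9 and Scarna17 never exceeded 3 counts in a library. Without the fold minimum, the edgeR test passed 4 of the 5 Scarna genes, beside 8025 of all 17502 rows. DESeq2 with the fold minimum also called 22 members. The median log2 fold change was -2.94 for Snora and 0.13 for Scarna genes, against 0.03 over all rows. Of the 33, 11 passed the filter only through NoSelect, did not pass it within RiboZero, and were all called lower. A member that is high in NoSelect alone could pass only by differing, so these 11 calls are a description. Among the 22 that also passed within RiboZero, 11 were called lower and the median was -1.01. With at least 10 counts in every library, 7 of 18 were lower. The median was -2.59 over the 33 members, also with Snora65 and Snora69, the 2 at the RiboZero floor, set to their bound. The libraries compare the same 8 mice plus mice 1 and 2 in RiboZero, and a fit with the mouse as a block also called 22.

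Snora81, which lies in Eif4a2, had 27.1, 94.3 and 119 normalised CPM in NoSelect and 1.69, 4.54 and 6.57 in RiboZero. Every NoSelect library lay above every RiboZero library. The log2 fold change was -4.21 (SE 0.284, edgeR adjusted p = 2.09e-10), and within mouse it ran from -4.77 to -3.76 in 8 of 8 mice. Snora44 went from 19.3, 33.7 and 42.3 to 1.38, 2.30 and 2.70 (log2 fold change -3.87, SE 0.145, edgeR adjusted p = 2.29e-14). Snora70 went from 6.74, 17.6 and 21.8 to 0.51, 0.694 and 1.78 (log2 fold change -4.21, SE 0.234, edgeR adjusted p = 9.77e-12). For both genes the ranges were again apart. Snora23 went from 7.34, 23.6 and 28.0 to 1.83, 4.21 and 5.07 (log2 fold change -2.37, SE 0.239, edgeR adjusted p = 8.5e-08), also without overlap.

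Some rarer members were also lower. Those named here did not pass the filter within RiboZero and entered through NoSelect, where they are high. Their fold changes and p values are therefore a description. Snora65, in the ribosomal protein gene Rpl12, had 0, 1.34 and 2.81 normalised CPM in NoSelect and was at 0 in all 12 RiboZero libraries, at least 9.83-fold lower against the floor. Snora15, in Cct6a, ran from 1.98 over 6.03 to 7.88 in NoSelect and from 0 over 0.0415 to 0.216 in RiboZero (log2 fold change -6.27, SE 0.389, edgeR adjusted p = 5.58e-11). Snora64, in the ribosomal protein gene Rps2, ran from 1.86 over 5.34 to 7.51 and from 0 over 0.165 to 0.432 (log2 fold change -4.78, SE 0.378, edgeR adjusted p = 2.22e-09). The NoSelect and RiboZero ranges of Snora15 and Snora64 did not overlap, whereas 1 NoSelect library had no Snora65 count.

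Other members differed less. Snora73a had 84.7, 104 and 118 normalised CPM in NoSelect and 81.6, 94.6 and 113 in RiboZero (log2 fold change -0.11, SE 0.067, edgeR adjusted p = 0.178). Snora74a had 24.6, 39.7 and 45.1 against 26.2, 38.2 and 48.8 (log2 fold change 0.04, SE 0.124, edgeR adjusted p = 0.819). Scarna10 had 65.1, 73.0 and 94.3 against 67.0, 82.7 and 98.5 (log2 fold change 0.13, SE 0.0663, edgeR adjusted p = 0.108). The groups overlapped for all 3. Within mouse, Scarna10 was higher in RiboZero in 8 of 8 mice (by 0.06 to 0.25 in log2), Snora73a was lower in 7 of 8 and Snora74a in 4 of 8. A p that misses the threshold does not show equal levels.

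Scarna2 and Scarna13 had the highest fold changes. Scarna2 had 69.7, 71.6 and 81.9 normalised CPM in NoSelect and 77.5, 90 and 108 in RiboZero (log2 fold change 0.36, SE 0.0585, edgeR adjusted p = 4.21e-05). Scarna13 had 24.6, 26.6 and 29.3 in NoSelect and 34.5, 39.7 and 43.2 in RiboZero (log2 fold change 0.53, SE 0.0441, edgeR adjusted p = 4.41e-09). Both were higher in RiboZero in 8 of 8 mice, and for Scarna13 the ranges did not overlap, but neither change reached the fold needed for a call. Scarna6, a guide for snRNA, had 11.1, 14.6 and 15.4 against 8.17, 11.5 and 13.6 (log2 fold change -0.31, SE 0.0861, edgeR adjusted p = 0.00636). Scarna3a, the shortest of the tested Scarna genes in this comparison, had 0.847, 1.32 and 1.64 against 0.504, 0.824 and 1.08 (log2 fold change -0.71, SE 0.155, edgeR adjusted p = 0.000823).

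The members were also split by annotated length. The split at 190 bases was chosen after the values were seen, so the counts on its sides are a description. Of 7 members of at least 190 bases, 1 (Snora73b, log2 fold change -1.31) was lower in RiboZero, and their median was 0.04. Of 25 shorter members, with the longer Snora43 row set aside, 21 were lower and the median was -3.11. Of these, 11 passed the filter only through NoSelect, with the same limit. Among the 14 that also passed within RiboZero, 10 were lower and the median was -2.44. The 4 exceptions were Scarna3a, Snora68 (-0.65), Snora78 (-0.57) and Snora7a (-0.29). Across the 33 members the fold change went with length (Pearson r = 0.54, Spearman rho = 0.58), and among the 25 short ones the values were 0.06 and 0.14. These genes share the same libraries and are not replicates.

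**Figure D2:**
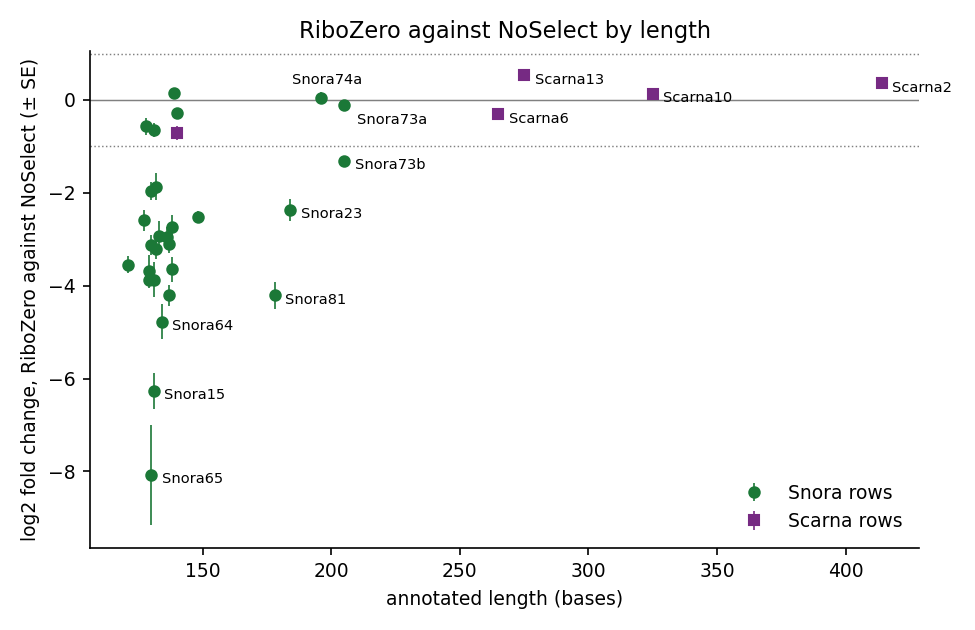
Log2 fold change of RiboZero against NoSelect (± SE of the edgeR fit) by annotated length in bases for the 33 tested members, circles for Snora and squares for Scarna genes. Dotted lines mark the fold of 1 on the log2 scale needed for a call; members of at least 190 bases lie between -1.31 and 0.53, and shorter ones reach down to -8.08 for Snora65, a fitted value that is no bound because this gene is at 0 in RiboZero.

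The same split was looked at in other short RNAs. These counts also hold rows that passed the filter through NoSelect alone. Of the other rows typed as snoRNA or scaRNA, 43 of 51 under 190 bases were lower in RiboZero (median log2 fold change -1.87), and 7 of 13 of at least 190 bases (median -1.19). Of the rows typed as snRNA, 28 of 31 short ones (median -3.76) and 12 of 12 longer ones (median -2.64) were lower. Of the rows typed as misc_RNA, 3 of 3 short ones and 1 of 28 longer ones were lower (medians -3.68 and 0.05). Long snRNA rows were thus lower in RiboZero, while most long members and long misc_RNA rows were not. The difference between members and other rows was not tested. With the same limit, among the members in host exons 11 of 14 tested were lower (median -3.62), and among the intronic ones 9 of 15 (median -1.96). Below 190 bases these counts were 11 of 13 and 8 of 10, with medians of -3.69 and -2.84. Only host transcripts that span a member were used for this split. Some intronic members, such as Scarna10 and Snora5c, share words with their host, so the 2 classes are not cleanly apart.

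The 2 mice numbered 5, one WT and one KO, stood apart in the short members. The longer Snora43 row is left out of the sums and counts of short members given for these mice. In WT and KO mouse 5 that row had 5.49 and 4.82 normalised CPM in NoSelect, against 4.82 to 5.68 in the others. In RiboZero it had 6.66 and 5.54, against 4.98 to 6.2. The sum over the remaining members under 190 bases in NoSelect was 109 normalised CPM in WT mouse 5 and 124 in KO mouse 5, against 225 to 300 in the other 6 libraries. Both were below every other library, at 43.7% of the mean of the rest. In RiboZero the sums were 19.1 and 22.6, against 25.7 to 40.1 in the other 10 (62.1%). The sum over members of at least 190 bases moved less, to 443 and 465 against 498 to 571 in NoSelect (84.5%) and to 384 and 415 against 404 to 488 in RiboZero (90.1%).

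Single members showed the same pattern. In NoSelect, Snora81 had 27.1 and 30.8 normalised CPM in WT and KO mouse 5 against 72.9 to 119 in the others. Snora23, in Ipo7, had 7.34 and 8.82 against 20.4 to 28.0, and Snora69, in Rpl39, 0.22 and 0.233 against 1.32 to 1.92. Scarna2 (69.7 and 75.4 against 70.4 to 81.9) and Scarna13 (24.6 and 27.6 against 25.6 to 29.3) did not separate. Both mice 5 were the 2 lowest NoSelect libraries in 23 of 31 short and 4 of 7 long members. Only members with a median of at least 10 counts were used, without the longer Snora43 row. Over all rows of the table with that median it held for 2.92% of 17067. In RiboZero it held for 9 of 14 and 2 of 7, and for 0.836% of 16633 rows. The mice numbered 5 were singled out after the values were seen, and members are not replicates. These counts are therefore a description.

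Other small RNAs moved with them. The sum over snRNA rows in NoSelect was 7220 and 7960 normalised CPM in the mice numbered 5 against 13800 to 16700 in the others, and in RiboZero 758 and 859 against 1390 to 1750. Other snoRNAs under 190 bases summed to 687 and 739 against 1060 to 1270 in NoSelect. The counts outside the ribosomal rows, 27129409 and 22009219, were near or within the range of the other NoSelect libraries (22858518 to 37100630). The labels name nothing that sets these 2 animals apart, and their part in the results was tested only by leaving them out. Without both, 22 members were still called between RiboZero and NoSelect, and the mean sum of short members in NoSelect was 266 ± 27 (SD, n = 6) in place of 229 ± 73.2 (n = 8).

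**Figure D3:**
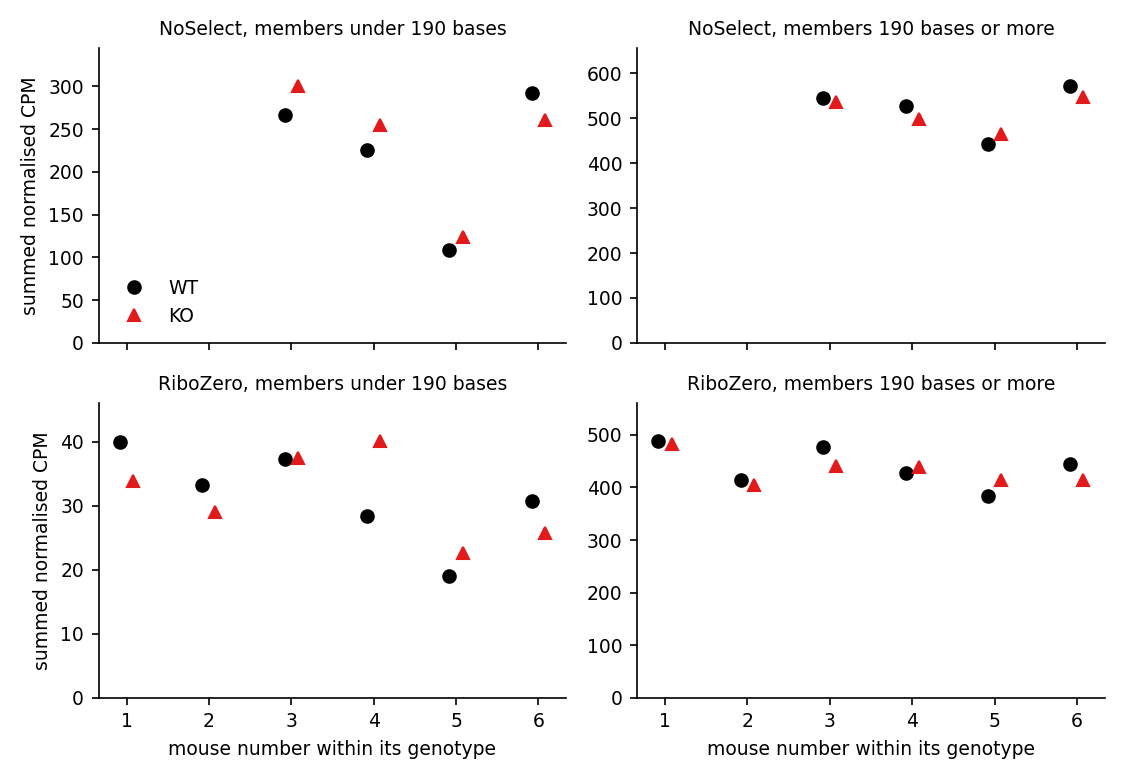
Summed normalised CPM of members under 190 bases (left) and of at least 190 bases (right) in NoSelect (top) and RiboZero (bottom) by mouse number, circles for WT and triangles for KO; equal numbers are different animals. The longer Snora43 row is left out of the left panels. Both mice numbered 5 lie lowest in the left panels (109 and 124 in NoSelect, 19.1 and 22.6 in RiboZero), and the right panels show a smaller difference.

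Loss of Bmal1, a transcription factor of the circadian clock, was compared within each preparation. No member was called at an adjusted p under 0.05 by edgeR's quasi-likelihood test in RiboZero (0 of 22 tested), PolyA (0 of 2) or NoSelect (0 of 39). Over all rows, 3.46% were called in RiboZero (1.63% lower, 1.84% higher in KO), 4.03% in PolyA (2.41% lower, 1.62% higher) and 2.17% in NoSelect (0.981% lower, 1.19% higher). At an unadjusted p under 0.05 in edgeR the number of members was also 0 in each. Over all rows, 2739 of 16710, 3098 of 17211 and 2696 of 17124 had such a p. DESeq2 called 0 members in each. The lowest adjusted p of a member was 0.437, 0.641 and 0.391. For no tested member did the WT and KO libraries fall into ranges that do not overlap, which 2.89%, 3.21% and 9.51% of all tested rows did.

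The summed level gave the same picture. It was 750 ± 136 normalised CPM in WT and 752 ± 111 in KO NoSelect libraries (SD, n = 4 each). The median log2 fold change of the members was 0.04 in RiboZero and 0.01 in NoSelect, with a range from -0.24 to 0.18 and from -0.77 to 0.44.

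The members with the smallest p are given as values. Snora9, in Snhg15, had 2.21, 2.34, 2.04 and 2.55 normalised CPM in WT mice 3 to 6 and 2.20, 1.54, 2.02 and 1.76 in KO mice 3 to 6 of NoSelect (log2 fold change -0.29, SE 0.147). Scarna2 had 72.3, 70.9, 69.7 and 70.5 in WT and 81.9, 70.4, 75.4 and 74.3 in KO NoSelect libraries (log2 fold change 0.09, SE 0.0467). The longer Snora43 row had 5.68, 5.54, 5.49 and 5.36 in WT and 4.96, 4.82, 4.82 and 5.55 in KO (log2 fold change -0.13, SE 0.0768). Each pair of groups overlapped through at least 1 KO library.

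In RiboZero, Snora74a had 28.2, 43.2 and 48.8 normalised CPM (lowest, median, highest of 6) in WT and 26.2, 34.4 and 46.6 in KO (log2 fold change -0.24, SE 0.141, edgeR adjusted p = 0.437). Its NoSelect values were 45.1, 41.6, 24.6 and 44.9 in WT and 41.5, 34.1, 26.8 and 37.8 in KO, with both low values from the mice numbered 5. The longer Snora43 row had 5.71, 5.97 and 6.66 in WT and 4.98, 5.65 and 5.93 in KO (log2 fold change -0.12, SE 0.0694). Scarna13 had 34.5, 37.5 and 41.7 in WT and 35.7, 40.8 and 43.2 in KO (log2 fold change 0.09, SE 0.06). In PolyA, Snora73b had 0.146, 0.229 and 0.453 in WT and 0.0906, 0.208 and 0.274 in KO (log2 fold change -0.32, SE 0.313), and the longer Snora43 row 3.91, 4.67 and 5.60 in WT and 4.23, 4.46 and 5.33 in KO (log2 fold change -0.05, SE 0.099).

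**Figure D4:**
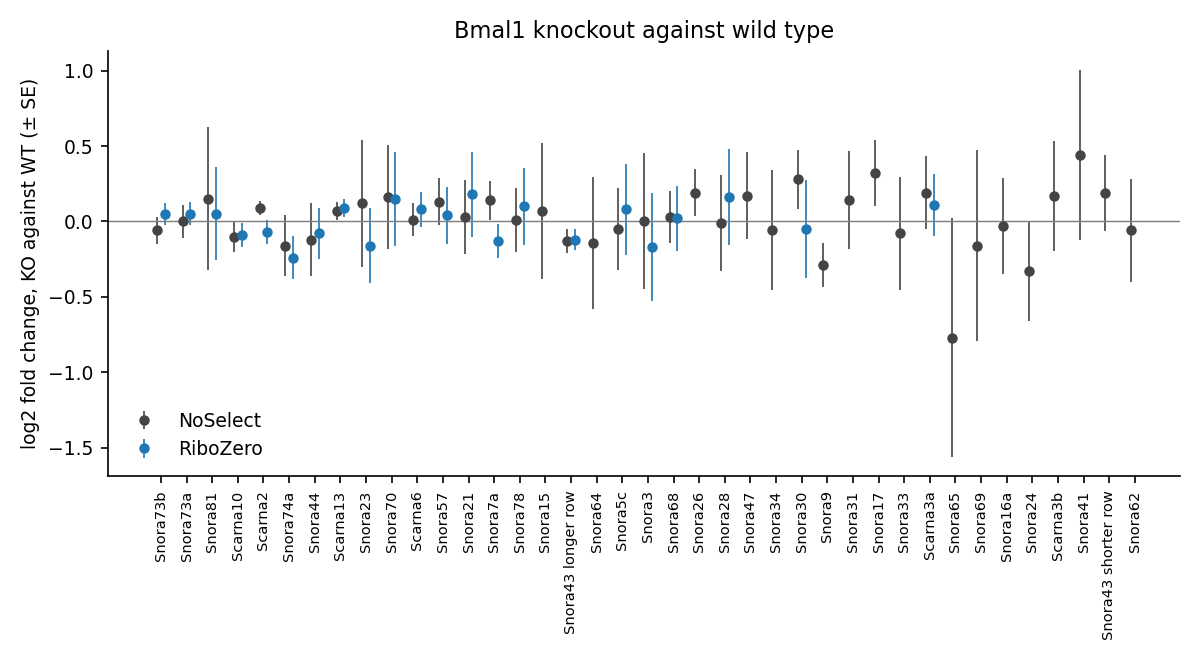
Log2 fold change of KO against WT (± SE of the edgeR fit) for the 39 members tested in NoSelect (n = 4 per genotype) and the 22 tested in RiboZero (n = 6 per genotype), ordered by NoSelect level from left to right. The points scatter on both sides of 0, between -0.24 and 0.18 in RiboZero and between -0.77 and 0.44 in NoSelect, where Snora65 has the largest SE (0.79).

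The KO effect itself was compared between preparations with an interaction term. No member was called by edgeR between PolyA and RiboZero (0 of 24 tested), PolyA and NoSelect (0 of 36) or RiboZero and NoSelect (0 of 33), and 0.0% of all rows were called in each. At an unadjusted p under 0.05 in edgeR there were 4, 4 and 0 members, beside 331 of 18164, 412 of 18372 and 244 of 17502 rows over all. DESeq2 called 0. Snora30, Snora57, Scarna10 and Snora5c were the 4 in both comparisons with PolyA, where their highest counts per library were 3, 7, 2 and 2. These 4 did not pass the filter within PolyA and entered through the other preparation, so their p values are a description.

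Genes for proteins that bind and mature H/ACA RNAs were counted in all preparations. Of a list of 25 genes for core proteins, assembly, 3′ end processing, telomerase and Cajal bodies, 24 were in the table. Between KO and WT, edgeR called 0 of 24 in RiboZero, 0 of 23 in PolyA and 0 of 24 in NoSelect, and DESeq2 called 0. At an unadjusted p under 0.05 in edgeR there were 0, 1 and 2 genes of the list. Over all rows, 2739 of 16710, 3098 of 17211 and 2696 of 17124 had such a p. Dyskerin (Dkc1), the pseudouridine synthase of the particle, had 10.2 to 11.6 normalised CPM in NoSelect, 11.5 to 15.6 in RiboZero and 11.0 to 14.2 in PolyA. Nhp2, a core protein, had 5.27 to 6.94, 6.62 to 8.98 and 10.0 to 13.3. The Dkc1 ranges of RiboZero and PolyA overlapped, and every PolyA library had more Nhp2 than any other library.

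Between PolyA and NoSelect, 3 of 23 tested genes of the list were higher in PolyA and 0 lower, a share near the 10.0% of all rows called higher. They were the core proteins Nop10 (log2 fold change 1.09, SE 0.0369, edgeR adjusted p = 2.25e-16) and Gar1 (1.04, SE 0.0617, edgeR adjusted p = 2.16e-12) and the assembly factor Ruvbl2 (1.25, SE 0.106, edgeR adjusted p = 7.73e-10). Nop10 had 9.92 to 12.6 normalised CPM in NoSelect and 21.4 to 25.4 in PolyA, and Gar1 3.26 to 4.52 and 6.97 to 8.79. DESeq2 called 2 genes of the list. Between RiboZero and NoSelect 0 of 24 were called by either tool, beside 4.3% of all rows in edgeR. In edgeR 16 had an unadjusted p under 0.05, beside 8969 of all 17502 rows. Between PolyA and RiboZero, of 24 tested, Gar1 and the Cajal body protein Smn1 were called higher and Terc lower. Over all rows, 7.0% were called higher and 16.6% lower. Terc, the telomerase RNA, ends in an H/ACA domain. It had 0.233 to 0.786 normalised CPM in RiboZero, 0.244 to 0.505 in NoSelect and at most 1 count in a PolyA library. Terc did not pass the filter within PolyA and entered through RiboZero, so its call is a description.

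Host genes were compared in the same way. Of 43 host genes 38 were in the table, and edgeR and DESeq2 both called 0 of 36 tested between RiboZero and NoSelect (median log2 fold change 0.08), with 26 at an unadjusted p under 0.05. Over all 17502 rows tested, 4.3% were called by edgeR and 8969 had an unadjusted p under 0.05. Eif4a2, the host of Snora81, had a log2 fold change of -0.13 (SE 0.0388), and Snhg12, the host of Snora44, of 0.19 (SE 0.0622). Rpl10, the host of Snora70, had 0.69 (SE 0.0767). Between PolyA and NoSelect 2 of 38 hosts were lower and 11 higher, beside 15.1% and 10.0% of all rows, and most of the 11 are ribosomal protein genes. One of the 11, Rps12, the host of Snora33, was listed at 0 in every NoSelect and RiboZero library, which gives no fold change. Rps12 and Snhg9, another of the 11, did not pass the filter within NoSelect and entered through PolyA. Their calls are a description. Between KO and WT, edgeR and DESeq2 called 0 hosts of 36 in RiboZero, 38 in PolyA and 36 in NoSelect, with 3 in each at an unadjusted p under 0.05. Over all rows, 2739 of 16710, 3098 of 17211 and 2696 of 17124 had such a p in edgeR.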

How the data were processed

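Gene-level estimated counts for 32 lung libraries were deposited by the authors as 1 table, made with Salmon 1.4.0, UMI-tools 1.1.1 and build GRCm38 per the submitters' processing notes. The annotation behind the table is not given in the sources used here. Estimated counts, 12.81% of which were not whole, were rounded. Groups came from the sample labels, and genes were matched by Ensembl identifier. The members and gene lists were chosen with earlier results of these data known.

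Rows were filtered with filterByExpr, scaled by TMM and tested with edgeR 4.0.16 (quasi-likelihood F-test, R 4.3.3) over the whole table, with Benjamini-Hochberg adjustment. KO and WT were compared within a preparation, preparations over both genotypes, and their interaction by a separate term. DESeq2 1.42.0 was the second tool. Calls between preparations also needed a log2 fold change of at least 1 in either direction. The floor was 3 counts per library and detection 10 counts. On simulated counts with 200 rows changed by 2 on the log2 scale, 99.5% were recovered for KO against WT in PolyA and 100.0% in each of the other comparisons simulated. The changed rows were drawn from those above a minimum mean count, and all rows had the same fixed dispersion. The recovery therefore does not cover rare members, members with a wide spread or smaller changes.

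Replicates of a group differed by more than counting noise (chi-square per degree of freedom 7.02 to 69.9 over 72 pairs), so none was counted as a duplicate. The labels give separate animals for the replicates. Libraries of the same mouse deviated together across preparations (correlations of 0.542 to 0.784), and the labels tie them to 1 animal. The fits above have no block. A block was an alternative, for the mouse between preparations and for the replicate number between KO and WT.

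Genes named with values were the 10 most abundant in NoSelect, the tested Scarna genes, the 3 with the smallest p for KO in each preparation, the 5 highest and 5 lowest between RiboZero and NoSelect, those not called lower in PolyA, and Terc, Dkc1, Nop10, Nhp2 and Gar1. Other members named were chosen after their values were seen. Sequences and positions came from GENCODE M21 (GRCm38).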

Additional observations from a re-analysis of the deposited data

Results flagged for a closer look

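In 4 of 94 group tests, 1 library lay far from the others of its group by Dixon's criterion, and chance alone picks out about 1 in 20 groups (0.05). Snora74a had 24.6 normalised CPM in the NoSelect library of WT mouse 5, against 41.6 to 45.1 in the other WT libraries. In RiboZero, WT mouse 5 had 1.38 for Snora44, against 2.21 to 2.70, and 1.86 for Snora23, against 4.2 to 5.07. Snora70 had 1.78 in the RiboZero library of KO mouse 3, against 0.62 to 0.945 in the other KO libraries. Of these 4 values, 3 came from WT mouse 5, which was also low in the sum of short members.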

How the results depend on the processing

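The counts of called members kept to within 1.5 times their value under most alternatives. With at least 10 counts required in every library, 0 members were called between PolyA and NoSelect (1 tested), 0 between PolyA and RiboZero (1 tested) and 7 between RiboZero and NoSelect (18 tested), since fewer rows could be tested. Without a filter, 40 were called between PolyA and RiboZero (47 tested). The summed share in NoSelect was 0.0858% of the counts outside the ribosomal rows and 0.0265% of all counts. Without the 2 most abundant members it was 0.0162% of all NoSelect counts. In RiboZero the share of all counts was 0.0595% with these 2 members and 0.038% without them. The median number detected in PolyA was 7.5 at 4 counts or more and 1.0 after thinning. Leaving out 1 NoSelect library at a time gave 34 to 35 calls between PolyA and NoSelect, 22 to 22 between RiboZero and NoSelect and 0 to 0 between KO and WT. With the mouse as a replicate block there were 35, 22 and 22 calls for PolyA against NoSelect, RiboZero against NoSelect and PolyA against RiboZero, and 0 in the 3 interactions. For KO against WT the block was the replicate number, and 0 members were called in each preparation. Deviations of WT and KO mice of equal number were correlated across 15019 to 15998 rows. The values were -0.169 to 0.136 in NoSelect, -0.129 to 0.291 in RiboZero and -0.179 to 0.303 in PolyA. In these preparations 0 of 8, 2 of 12 and 2 of 12 libraries correlated best with their own number. These correlations do not describe small RNAs alone, in which both mice numbered 5 were low. Their snRNA rows summed to 7220 and 7960 normalised CPM in NoSelect, against 13800 to 16700 in the others. Whether mice of equal number share more than that number was not tested for small RNAs.

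Snora74a, uncalled between RiboZero and NoSelect at 0.04, changed sign to -0.02 with the replicate block and to -0.02 without the mice numbered 5, an alternative chosen after seeing the data. Leaving out single libraries gave -0.04 to 0.09, with -0.04 without WT replicate 5. The cause was not tested. No other named value changed sign. Few members had enough counts in PolyA to be tested for KO, and 4 animals per genotype limit NoSelect.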
